A study of Mus musculus with 6 samples.

Results

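The T cell antigen receptor complex was followed through 10 genes: the CD3 chain genes Cd3d, Cd3e, Cd3g and Cd247, the receptor constant genes Trac, Trbc1 and Trbc2, and the coreceptor genes Cd4, Cd8a and Cd8b1. The genes, 10 of the 55416 in the count tables, were chosen by name with earlier results of these data known. All 10 passed the filter on low counts that left 14926 genes. RNA-seq was done on splenic CD3+ T cells of wild-type C57BL/6 graft recipients. There were 3 libraries after an isograft, from a genetically identical donor, and 3 after an allograft, from a genetically different one. All cells were maintained in medium with fetal bovine serum and antibiotics before lysis, per the labels' protocols. Which organ was grafted, from which strain and how long before, how old the mice were and how long the cells were kept is not stated in the labels. Nothing in the labels ties each library to a mouse of its own, so a p-value here speaks only of the spread between libraries, part of which may be technical.

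The alpha and beta chains of the receptor bind peptide presented by MHC molecules. They have almost no cytoplasmic part of their own, and signal through the CD3 delta, epsilon and gamma chains and the zeta chain (Cd247), whose tails carry immunoreceptor tyrosine-based activation motifs (ITAMs) that the kinases Lck and Zap70 act on. CD4 and CD8 bind MHC class II and class I and bring Lck to the receptor, and CD8 on conventional T cells is made of an alpha chain (Cd8a) and a beta chain (Cd8b1). A chain that lacks its partners is held back and degraded inside the cell, so the surface receptor needs every chain.

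Allograft libraries had lower transcript levels of all 4 CD3 chain genes, of both beta constant genes and of Cd4 and Cd8b1, and higher levels of the alpha constant gene Trac and of Cd8a. The falls ranged from a log2 fold change of -0.55 ± 0.08 (SE) for Cd8b1 to -1.57 ± 0.08 for Cd4. Trac rose by 0.72 ± 0.08. With edgeR's quasi-likelihood test and Benjamini-Hochberg adjustment over all genes, 2 members rose and 8 fell at an adjusted p under 0.05, while 28.7% of all genes tested rose, 29.1% fell and 57.8% were called in either direction. The median log2 fold change was -0.66 over the members and -0.01 over all genes. In all 10 members the 3 isograft and the 3 allograft values did not overlap, as in 63.3% of all genes: 2 members were higher in every allograft library (31.3% of all genes) and 8 lower (32.1%). Levels are in CPM, counts scaled to library size by edgeR's TMM method. Positive log2 fold changes mean higher in allograft libraries. Scaling by total counts alone moved the median over all genes to -0.24, and 2973 genes rose and 6093 fell in place of 4283 and 4349. On that scale Cd8a no longer passed (0.04, adjusted p = 0.68), while the other 9 members kept their calls. In bulk RNA, fewer cells of a type and less RNA per cell cannot be told apart.

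**Figure D1:**
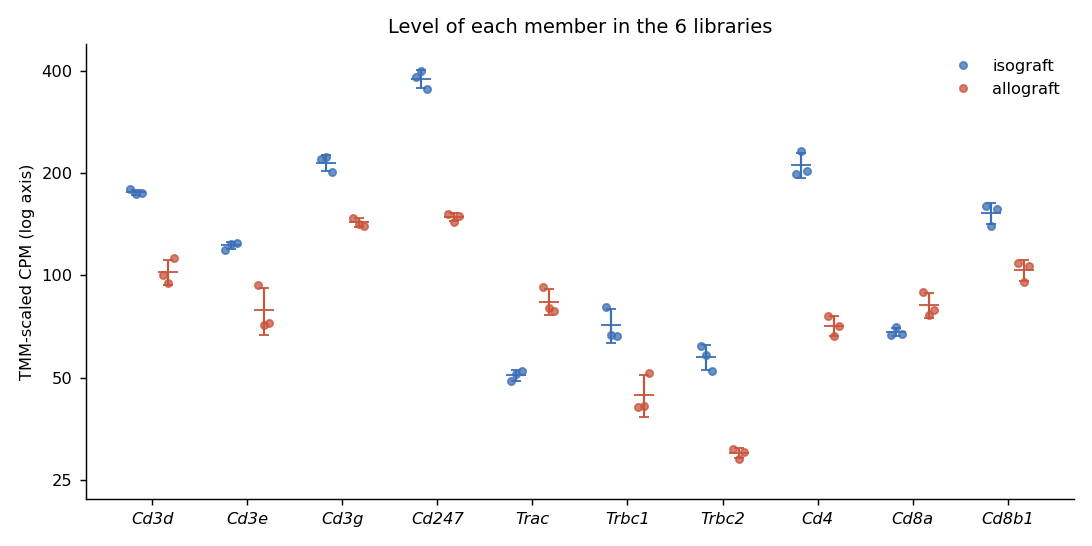
TMM-scaled CPM (log axis) of the 10 members in each library, isograft in blue and allograft in red (points, 3 libraries per group; horizontal bars and whiskers, mean ± SD). In every member the groups are separate, with the allograft points lower in 8 members and higher in Trac and Cd8a.

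**Figure D2:**
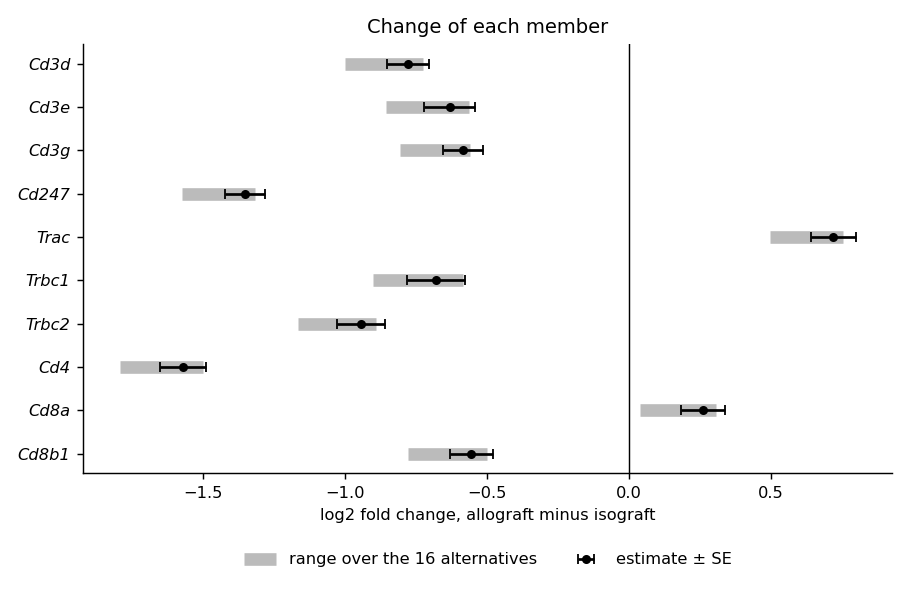
Log2 fold change (allograft minus isograft) of each member from the edgeR fit across all genes, with its SE (black), and the range over 16 alternative settings (grey). Trac and Cd8a lie right of 0 and the other 8 lie left of it, and the range of Cd8a comes closest to 0, at 0.04.

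Totals ran from 30066137 to 37821738 counts per library. The labelled cell type was checked against markers. Transcripts of T cells and of B cells were both abundant in every library: the B cell gene Ms4a1 stood at 124.6 ± 4.35 CPM in isograft libraries and at 143 ± 2.33 in allograft libraries (SD, n = 3). The 12 B cell markers summed to between 1638 and 1737 CPM in isograft and between 1875 and 2002 in allograft libraries. Of them 4 rose and 5 fell (median -0.05), and Fcer2a (52.8 ± 0.951 to 378 ± 22.6 CPM) made most of the higher sum. Over all genes tested 28.7% rose and 29.1% fell, the background for every count of marker genes here and below. The part of B cell RNA in the members' changes was not tested. Leaving the B cell markers and immunoglobulin genes out of the fit changed no member's call, which shows only that they did not set the scaling.

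The receptor's alpha and beta constant genes moved in opposite directions. Trac (ENSMUSG00000076928, chromosome 14, 54457978 to 54461663, GRCm39, plus strand) encodes the constant part of the alpha chain. Its level was 48.9, 51.2 and 52.4 CPM in the isograft libraries and 92.2, 80.2 and 78.7 CPM in the allograft libraries, in the order of replicates 1 to 3 that is kept below. All allograft values lay above all isograft values, and allograft replicate 1 was the highest. The log2 fold change was 0.72 ± 0.08 (adjusted p = 1.9e-07).

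Trbc1 (ENSMUSG00000076490, chromosome 6, 41515152 to 41516815, plus strand) and Trbc2 (ENSMUSG00000076498, chromosome 6, 41523664 to 41525286, plus strand) encode alternative constant parts of the beta chain. They lie 6848 bases apart, and a beta chain uses one or the other. Trbc1 stood at 81.0, 66.8 and 66.4 CPM in isograft and at 40.9, 41.2 and 51.8 CPM in allograft replicates. Trbc2 stood at 62.0, 58.3 and 52.4 CPM in isograft and at 30.8, 28.8 and 30.3 CPM in allograft replicates. Every allograft library was below every isograft library for both genes, with the narrower gap in Trbc1. Trbc1 fell by 0.68 on the log2 scale (SE 0.10, adjusted p = 1.8e-05) and Trbc2 by 0.94 (SE 0.09, adjusted p = 1.1e-08).

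Both beta constants are uncertain in level, because they are near-identical copies and fragments that map to more than 1 place were not counted under the tool's defaults. In the GENCODE M21 transcripts, exon 1, the 375 bases of the extracellular constant domain (chromosome 6, 41515152 to 41515526 in Trbc1 and 41523664 to 41524038 in Trbc2), differs at 1 base, which is C260A from Trbc1 to Trbc2 with positions counted from the first base of the constant transcript. That leaves a run of 259 identical bases before it. Exon 3, whose 107 bases code for part of the transmembrane end, differs at 15 bases and is 85.98% identical. The stretches below show why reads can be told apart in exon 3 and hardly in exon 1, with differing bases in capitals. The first pair covers positions 231 to 290, and the second positions 394 to 500.
Trbc1, exon 1: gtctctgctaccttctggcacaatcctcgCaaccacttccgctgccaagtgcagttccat
Trbc2, exon 1: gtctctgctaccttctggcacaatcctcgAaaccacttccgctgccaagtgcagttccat
Trbc1, exon 3: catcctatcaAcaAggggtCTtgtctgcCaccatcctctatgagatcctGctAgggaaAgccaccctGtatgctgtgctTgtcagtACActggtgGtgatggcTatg
Trbc2, exon 3: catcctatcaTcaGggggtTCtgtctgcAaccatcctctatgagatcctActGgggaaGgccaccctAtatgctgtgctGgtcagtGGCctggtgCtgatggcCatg

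Ratios within a library do not depend on how libraries are scaled. The ratio of Trbc1 to Trac counts was 1.66, 1.30 and 1.27 in the isograft libraries, against 0.443, 0.514 and 0.658 after allografts. That of Trbc2 to Trac was 1.27, 1.14 and 0.998 in isograft and 0.334, 0.359 and 0.385 in allograft replicates. On the log2 scale, with 0.5 added to each count, the ratios differed between the groups by -1.40 ± 0.21 (SE) and -1.65 ± 0.12, without overlap. In all, 18 such ratios were compared by two-sided exact permutation tests over the 6 libraries. With 3 libraries against 3 no p below 0.10 is possible, and the adjusted p over the 18 ratios is then 0.12, so none could pass 0.05. Of the 18 ratios 15 did not overlap between groups and reached that smallest p, both of these included. For both this followed from the genes' own values: Trac was higher and the beta constants lower in every allograft library. How often other pairs of genes do so was not tested. The ratio of Trbc1 to Trbc2 was 1.31, 1.15 and 1.27 in isograft and 1.33, 1.43 and 1.71 in allograft replicates. Its log2 difference was 0.26 ± 0.12, also at the smallest p, with the highest isograft value just under the lowest allograft one.

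The variable and joining segments of the same loci are separate genes in the tables, and a fragment is counted in 1 gene only. They were summed after the constant genes' values had been seen. The 128 alpha variable segments (Trav) summed to 32.0, 34.9 and 36.5 CPM in isograft and to 61.5, 54.0 and 59.1 in allograft replicates. The 35 beta variable segments (Trbv) summed to 98.8, 103 and 91.3 CPM in isograft and to 49.1, 49.5 and 58.0 in allograft replicates. Alpha sums were thus higher and beta sums lower in every allograft library. Of 42 Trav genes past the filter 15 rose and 0 fell (median log2 fold change 0.84), and of 19 Trbv genes 0 rose and 15 fell, with a median of -0.92. Over all genes tested 28.7% rose and 29.1% fell. Beta joining segments (Trbj, 14 genes) summed to 47.2 ± 1.29 and 27.3 ± 1.73 CPM in isograft and allograft libraries (SD, n = 3). Alpha joining segments (Traj, 60 genes) had few counts, 133 to 202 in isograft and 296 to 317 in allograft libraries.

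The summed ratio of alpha to beta counts was 0.398 ± 0.0508 in isograft and 1.13 ± 0.164 in allograft libraries for the constant genes. For the variable segments it was 0.354 ± 0.0399 and 1.12 ± 0.120, and for the joining segments 0.101 ± 0.0262 and 0.381 ± 0.0217 (SD, n = 3). The 3 kinds of segment come from the same libraries and largely from the same transcripts, so they are not independent of one another.

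**Figure D3:**
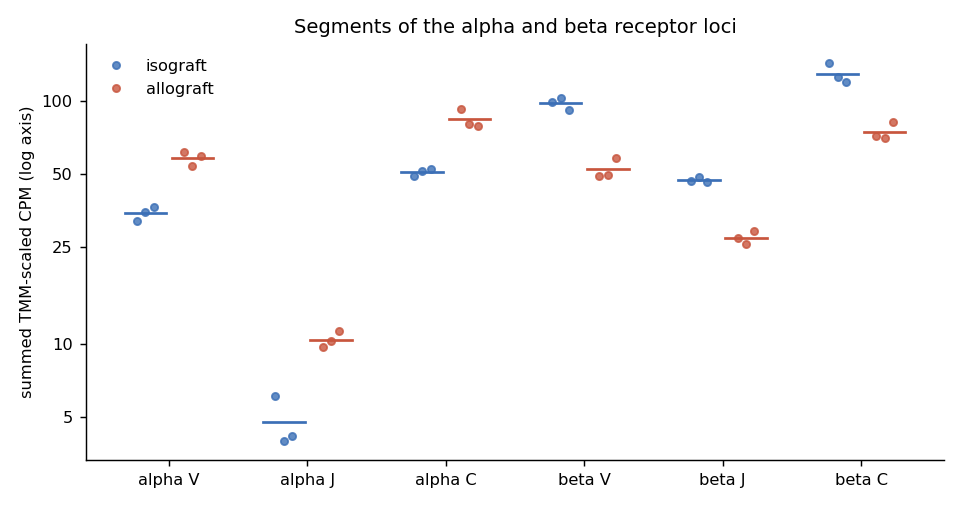
Summed TMM-scaled CPM (log axis) of variable (V), joining (J) and constant (C) genes of the alpha and beta receptor loci in each library (points, 3 per group; bars, means). Alpha sums are higher and beta sums lower in all 3 allograft libraries, as in the beta V sums of 91.3 to 103 CPM in isograft against 49.1 to 58.0 in allograft libraries.

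The gamma and delta receptor constants, which mark the other T cell lineage, had few counts. Trdc had 49 to 72 counts in isograft and 48 to 62 in allograft libraries, a log2 fold change of 0.19 ± 0.27 (adjusted p = 0.57). The 4 genes of this list summed to between 3.85 and 4.29 CPM in isograft and between 2.95 and 3.72 in allograft libraries. Trgc1 (Tcrg-C1 in RefSeq) had 24, 23 and 43 counts in isograft and 8, 18 and 7 in allograft libraries, a difference of -1.21 ± 0.51 with an adjusted p of 0.048. That call was absent in 9 of the 16 alternatives, DESeq2 and limma-voom among them. Trgc2 (-0.23 ± 0.41) and Trgc4 (-0.51 ± 0.57) did not pass.

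All 4 CD3 chain genes fell, with the largest fold change in Cd247. Together they summed to between 855.9 and 918.1 CPM in isograft and between 452 and 493.7 in allograft libraries. Cd3g (ENSMUSG00000002033, chromosome 9, 44880870 to 44891729, minus strand), Cd3d (ENSMUSG00000032094, chromosome 9, 44893084 to 44898637, plus strand) and Cd3e (ENSMUSG00000032093, chromosome 9, 44910038 to 44920925, minus strand) form a cluster. Cd3g and Cd3d are read outward from a shared stretch of 1354 bases, and Cd3e ends 11400 bases beyond Cd3d. Cd247 (ENSMUSG00000005763, chromosome 1, 165616250 to 165704846, plus strand) lies apart.

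Cd3d, the delta chain, stood at 179.1, 173.7 and 174.9 CPM in isograft and at 100.6, 94.8 and 112.2 in allograft replicates. It fell by 0.78 (SE 0.07, adjusted p = 2.6e-08). Cd3g, the gamma chain, stood at 220.3, 222.5 and 201.2 CPM in isograft and at 147.8, 141.7 and 140.2 in allograft replicates. The spread within groups was small against the gap between them for both genes. Cd3g fell by 0.58 (SE 0.07, adjusted p = 5.7e-07).

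Cd3e, the epsilon chain, is present as a pair in each complex, once with delta and once with gamma. It stood at 119.2, 123.6 and 124.9 CPM in isograft and at 93.5, 71.5 and 72.4 in allograft replicates. Allograft replicate 1 lay above the other allograft libraries and still below every isograft library. Cd3e fell by 0.63 (SE 0.09, adjusted p = 8.2e-06), and the fall was -0.78 on the log2 scale in the fit without allograft replicate 1.

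Cd247, the zeta chain, carries more ITAMs than any other chain of the complex. It stood at 384.4, 398.4 and 354.8 CPM in isograft and at 151.7, 144.0 and 150.0 in allograft replicates, 2.55-fold lower. The lowest isograft value was far above the highest allograft value. It fell by 1.35 on the log2 scale (SE 0.07, adjusted p = 3.9e-12), and 1.99% of all genes had a smaller p. Of its 5329 exon bases, 3213 (60.3%) are shared with other genes, 3007 of them with Pou2f1 on the opposite strand. Under the tool's defaults fragments over shared bases are counted for neither gene, so the level of Cd247 can be understated. Pou2f1, a transcription factor of the octamer-binding class, went from 56.6 ± 4.65 to 40.0 ± 4.33 CPM (-0.50 ± 0.09 on the log2 scale). Of Cd3e, 135 of 4080 exon bases (3.31%) are shared with the predicted gene Gm48719, and the other 8 members share none.

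The ratio of Cd247 to Cd3g counts was 1.74, 1.79 and 1.76 in isograft and 1.03, 1.02 and 1.07 in allograft replicates. The log2 ratio differed by -0.77 ± 0.02 (SE), and those of Cd247 to Cd3e and to Cd3d by -0.71 ± 0.13 and -0.57 ± 0.08. The 3 ratios did not overlap between groups and reached the smallest exact p of 0.10 (adjusted p = 0.12). Of all 18 ratios 15 did the same. Among delta, epsilon and gamma the ratios overlapped between groups. Their log2 differences were -0.14 ± 0.16 for Cd3d to Cd3e (exact p = 0.50), 0.06 ± 0.12 for Cd3g to Cd3e (exact p = 0.60) and 0.20 ± 0.09 for Cd3g to Cd3d (exact p = 0.20). A difference between these 3 chains was not detectable in 3 libraries per group, which does not show that they changed equally. Without allograft replicate 1 the Cd3d to Cd3e difference was -0.0014 and the Cd3g to Cd3e difference 0.16, and without allograft replicate 3 the first was -0.26. Against Trac, which rose, every CD3 chain's ratio was lower in allograft libraries, by 1.30 (Cd3g) to 2.07 (Cd247) on the log2 scale, without overlap. That lack of overlap followed from the genes' own values and adds no separate support. Trac was higher and each CD3 chain lower in every allograft library.

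**Figure D4:**
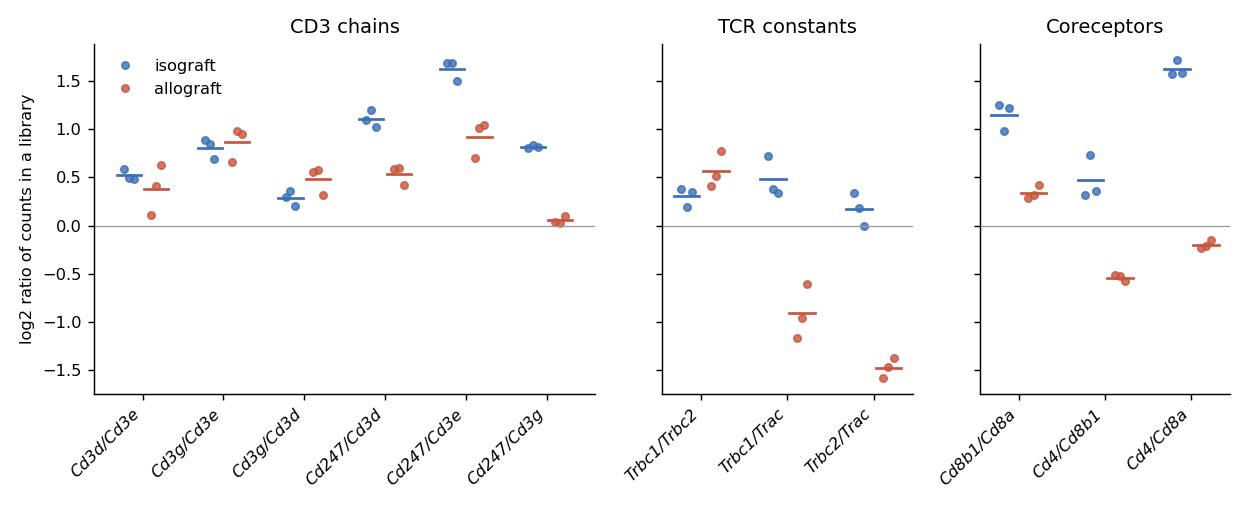
Log2 ratio of the counts of 2 members in each library, with 0.5 added to each count, isograft in blue and allograft in red (points, 3 libraries per group; bars, means). The ratios among Cd3d, Cd3e and Cd3g overlap between groups, and the ratios with Cd247, those of the beta constants to Trac and those among the coreceptors are lower in every allograft library.

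Because the CD3 genes fell together, the 250 bases upstream of their starts in the RefSeq promoter table are shown. Capitals mark the 6 letters AGGAAG, one form of the ETS site, or their reverse complement CTTCCT.
Cd3d (GRCm38.p6 chr9:44981536-44981785, plus strand): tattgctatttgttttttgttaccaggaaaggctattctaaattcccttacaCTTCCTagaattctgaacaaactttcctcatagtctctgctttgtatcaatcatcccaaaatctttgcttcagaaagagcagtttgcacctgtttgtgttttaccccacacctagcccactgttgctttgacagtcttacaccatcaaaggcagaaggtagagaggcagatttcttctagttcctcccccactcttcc
Cd3e (GRCm38.p6 chr9:45009612-45009861, minus strand): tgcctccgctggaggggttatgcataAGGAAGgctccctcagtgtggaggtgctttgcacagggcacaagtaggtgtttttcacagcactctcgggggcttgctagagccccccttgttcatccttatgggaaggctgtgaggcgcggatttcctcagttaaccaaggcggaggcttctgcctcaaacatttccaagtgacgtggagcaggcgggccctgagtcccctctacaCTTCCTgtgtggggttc
Cd3g (GRCm38.p6 chr9:44980432-44980681, minus strand): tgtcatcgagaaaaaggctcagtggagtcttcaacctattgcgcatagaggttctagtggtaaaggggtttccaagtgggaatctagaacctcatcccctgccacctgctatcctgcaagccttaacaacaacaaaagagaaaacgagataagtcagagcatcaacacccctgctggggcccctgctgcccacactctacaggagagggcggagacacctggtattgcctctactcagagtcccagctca
Cd247 (GRCm38.p6 chr1:165788431-165788680, plus strand): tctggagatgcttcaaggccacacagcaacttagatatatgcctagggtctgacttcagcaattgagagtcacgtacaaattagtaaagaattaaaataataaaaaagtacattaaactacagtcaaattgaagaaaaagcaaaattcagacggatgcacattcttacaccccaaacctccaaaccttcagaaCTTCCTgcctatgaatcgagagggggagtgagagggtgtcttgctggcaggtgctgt
The ETS core was found once in Cd3d and in Cd247, at 2 places in Cd3e and nowhere in Cd3g, and 29.5% of 32851 promoters in the table hold it on either strand. The E-box CANNTG, which reads the same on both strands, was found in all 4 windows and is held by 66.2% of promoters. The RUNX letters TGTGGT, or ACCACA on the other strand, are held by 14.0% and were in none of the 4 windows. The TATA letters TATAAA or TTTATA are held by 12.4% of promoters and were also in none. The GATA letters AGATAA or TTATCT (9.99% of promoters) were in the Cd3g window only, and the AP-1 letters TGANTCA (6.75%) in none. A match in these letters is no sign of binding. The window of Cd8a, which rose, is not printed. It held 2 E-boxes and 0 matches to the ETS, RUNX, GATA, AP-1 and TATA letters. The table held no entry for Cd4, Cd8b1, Trac, Trbc1 or Trbc2.

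Among the coreceptors Cd4 fell most, Cd8b1 fell less, and Cd8a was slightly higher in allograft libraries. Cd4 (ENSMUSG00000023274, chromosome 6, 124841655 to 124865184, minus strand), the coreceptor of helper and regulatory T cells, stood at 199.2, 232.7 and 202.4 CPM in isograft and at 76.2, 66.2 and 71.1 in allograft replicates. The groups were far apart, with a 2.97-fold lower level in allograft libraries. It fell by 1.57 (SE 0.08, adjusted p = 3.0e-12), and 1.86% of all genes had a smaller p. For the members other than Cd4 and Cd247 that share ran from 9.13% (Trbc2) to 45.6% (Cd8a).

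Cd8b1 and Cd8a lie next to each other on chromosome 6, 35932 bases apart. Cd8b1 (ENSMUSG00000053044, 71299772 to 71314478, plus strand) stood at 159.7, 139.7 and 157.3 CPM in isograft and at 109.1, 95.6 and 106.3 in allograft replicates, and fell by 0.55 (SE 0.08, adjusted p = 4.1e-06). Cd8a (ENSMUSG00000053977, 71350411 to 71356157, plus strand) stood at 67.0, 70.5 and 67.3 CPM in isograft and at 89.6, 76.6 and 79.1 in allograft replicates. Its values did not overlap either, but the gap was small and allograft replicate 1 held the highest value. The log2 fold change was 0.26 ± 0.08 (adjusted p = 0.0070), and it was 0.18 without allograft replicate 1 (adjusted p = 0.054).

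The ratio of Cd8b1 to Cd8a counts was 2.38, 1.98 and 2.34 in isograft and 1.22, 1.25 and 1.34 in allograft replicates. Its log2 difference was -0.81 ± 0.09 (SE). The ratio of Cd4 to Cd8a counts was 2.97, 3.30 and 3.01 in isograft and 0.850, 0.864 and 0.898 in allograft replicates, a log2 difference of -1.83 ± 0.05. That of Cd4 to Cd8b1 was 1.25, 1.67 and 1.29 in isograft and 0.699, 0.693 and 0.669 in allograft replicates, a log2 difference of -1.02 ± 0.13. All 3 ratios were lower in every allograft library and were among the 15 of 18 at the smallest exact p of 0.10 (adjusted p = 0.12). For both ratios to Cd8a this followed from the genes' own values. Cd8a was higher and Cd4 and Cd8b1 lower in every allograft library.

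Cd8a and Cd4 are also expressed by dendritic cells. Defining genes of the Cd8a-expressing kind were at trace levels: Xcr1 at 0.638 and 0.678 CPM and Clec9a at 0.534 and 0.361 CPM in isograft and allograft libraries. Of that list's 6 genes 1 rose and 1 fell, and it summed to between 207.4 and 233.9 CPM in isograft and between 170.8 and 185.7 in allograft libraries, nearly all from Wdfy4, which B cells express too. The 6 markers of conventional dendritic cells that can express Cd4 summed to between 30.6 and 34.8 CPM in isograft libraries. In allograft libraries they summed to between 28.0 and 37.9 CPM. Of these markers 3 were tested, and 0 rose and 0 fell. Siglech, of plasmacytoid dendritic cells, had 2 to 13 counts per library. The 7 plasmacytoid genes summed to between 120.9 and 133.7 CPM in isograft and between 148.3 and 152.7 in allograft libraries, most of it from Bst2, an interferon-induced gene of many cells. The 8 NK cell markers summed to between 68.1 and 72.3 CPM in isograft and between 90.3 and 95.1 in allograft libraries, where 2 rose (Eomes and Nkg7) and 1 fell (Gzma). Eomes, a transcription factor that activated CD8 T cells also express, went from 13.2 ± 2.10 to 36.8 ± 4.71 CPM and made most of the higher sum. Of 4 genes of invariant NKT and MAIT cells 2 were tested and 1 fell, Cd1d1 (24.1 ± 1.31 to 10.1 ± 1.45 CPM), which B cells also express. Macrophage and monocyte markers summed to between 112.3 and 125.9 CPM in isograft and between 96.0 and 108.4 in allograft libraries, and neutrophil markers to at most 10.5 CPM in any library. The part of these cells in the coreceptor values was not tested.

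Levels of different members are compared per kilobase of exon. In isograft libraries Cd8b1 (102.6 ± 7.38 CPM per kilobase), Cd3d (96.9 ± 1.57), Trbc1 (95.4 ± 11.1) and Trbc2 (83.2 ± 7.06) stood at the top, and the ranges of neighbours among these 4 overlapped. Cd247 (71.2 ± 4.17) and Cd3g (65.7 ± 3.57) overlapped below them, as did Trac (54.4 ± 1.92) and Cd4 (52.4 ± 4.59). Cd3e (30.0 ± 0.735) and Cd8a (18.8 ± 0.533) were lowest and separate (SD, n = 3).

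In allograft libraries Trac was the highest member at 89.5 ± 7.91 CPM per kilobase, with no overlap with the next, Cd8b1 at 69.9 ± 4.81. Cd8b1 overlapped in range with Trbc1 (59.6 ± 8.26) and Trbc1 with Cd3d (56.5 ± 4.88), as did Cd3g (43.8 ± 1.23) and Trbc2 (43.3 ± 1.45). Cd247 followed at 27.9 ± 0.754. Cd8a (22.5 ± 1.90), Cd3e (19.4 ± 3.06) and Cd4 (17.6 ± 1.24) were lowest, and neighbours among them overlapped. Trac thus moved from rank 7 to rank 1 and Cd4 from rank 8 to rank 10.

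The order depends on the length used. Counts over all exons were also divided by the coding length in GENCODE M21, which raises genes with much noncoding exon. Cd247 has 5329 exon bases and a coding length of 618. On that scale Cd247 was highest in isograft libraries at 613.5 and Cd3g in allograft libraries at 262.4. Trac moved from rank 8 to rank 3 and Cd4 from rank 6 to rank 10. Leaving out bases shared with other genes, a choice made after seeing the data, put Cd247 at 179.2 CPM per kilobase in isograft libraries, rank 1, and at 70.2 in allograft libraries, rank 2 behind Trac.

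**Figure D5:**
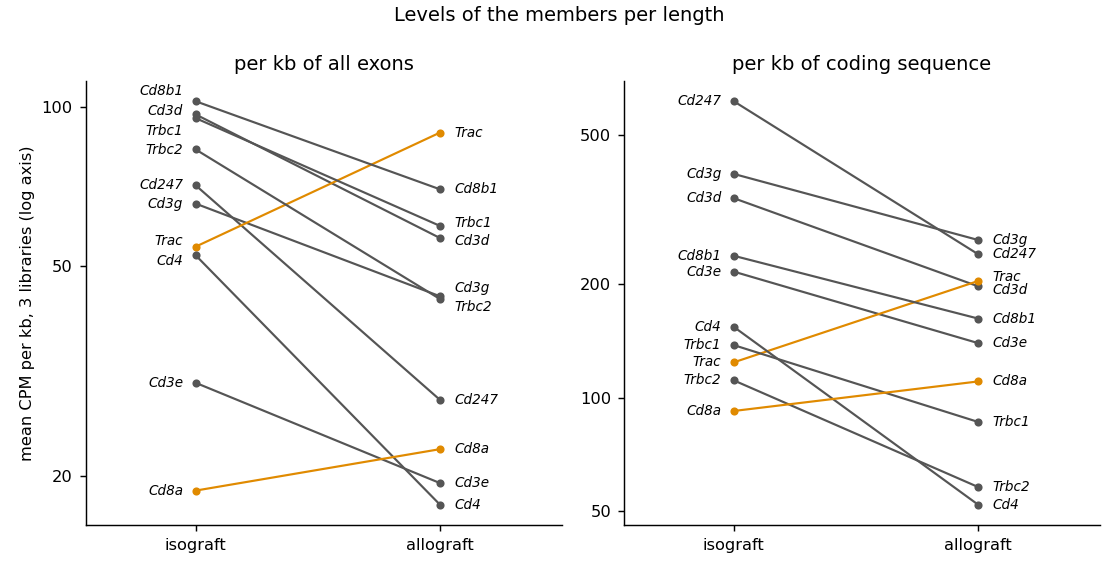
Mean level of each member in isograft and allograft libraries (3 each), on log axes. CPM over all exons were divided by kilobases of all exons (left) or of coding length (right). Orange lines mark the 2 members with higher means in allograft libraries, Trac and Cd8a, and grey lines the 8 with lower means.

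Genes that act next to the receptor were taken from lists. Their counts stand beside 28.7% of all genes tested that rose and 29.1% that fell. With total counts 2973 of the 14926 genes rose and 6093 fell. Of 25 genes of proximal signalling 7 rose, 10 fell and 8 did not pass (median -0.06), and with total counts 5 rose and 14 fell. Lcp2, the SLP-76 adaptor phosphorylated by Zap70, rose from 119.3 ± 8.98 to 472.8 ± 26.4 CPM. Ubash3a, a phosphatase-family inhibitor of receptor signalling, fell by 2.33 (SE 0.09), and the adaptor genes Grap2 and Fyb fell by 1.62 (SE 0.09) and 1.84 (SE 0.09). Lck, the kinase that CD4 and CD8 carry, stood at 221.1 ± 9.51 and 222.7 ± 9.92 CPM in isograft and allograft libraries, a log2 fold change of 0.01 ± 0.07 (adjusted p = 0.91). Zap70, the kinase that binds phosphorylated ITAMs, rose from 77.9 ± 4.36 to 176.9 ± 8.73 CPM (1.18 ± 0.07, adjusted p = 4.9e-11), and Fyn, a kinase related to Lck, rose by 0.80 ± 0.07. These 3 kinases were named after their values were seen.

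Of 12 genes of receptor turnover, the removal of the complex from the surface and its degradation, 11 were tested, of which 1 rose and 8 fell, with a median of -0.42, and with total counts 0 rose and 10 fell. Sla2, an adaptor that limits receptor level, went from 12.0 ± 0.715 to 3.29 ± 0.728 CPM. Laptm5, a lysosomal protein that promotes loss of the zeta chain, fell by 1.05 (SE 0.10), the adaptor gene Lax1 by 0.81 (SE 0.07) and the ubiquitin ligase gene Nedd4 by 0.77 (SE 0.12). Of 18 transcription regulators of the receptor and coreceptor genes 6 rose and 8 fell, with a median of -0.11, and with total counts 3 rose and 11 fell. Lef1 fell by 2.09 (SE 0.09), Ets1 from 831.9 ± 37.2 to 332.1 ± 23.1 CPM, Bcl11b by 1.12 (SE 0.09), and Patz1, a repressor of the Cd8 genes in thymocytes, by 1.27 (SE 0.11).

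Other surface genes of T cells moved both ways. Of 10 such genes 4 rose and 4 fell, with a median of -0.06, and with total counts 4 rose and 6 fell. Cd5 rose by 1.38 ± 0.08, Cd27 by 0.95 ± 0.09 and Cd6 by 0.60 ± 0.08, while Il7r, the interleukin 7 receptor, fell by 2.77 (SE 0.19). The ITAM adaptors of other receptors were also read. Cd79a and Cd79b of the B cell receptor fell by 0.78 (SE 0.09) and 0.87 (SE 0.07). Fcer1g, which can take the place of the zeta chain in the complex, stood at 6.97 ± 0.859 and 9.91 ± 3.07 CPM (0.51 ± 0.18, adjusted p = 0.026). That call was lost with total counts, with the replicate block and without isograft replicate 1 or allograft replicate 1. Tyrobp differed by 0.24 ± 0.19 (adjusted p = 0.27). Of 4 genes tied to receptor formation in precursor cells, Ptcra and Rag2 had no count in any library and Rag1 had at most 12. Dntt fell from 1.65 ± 0.494 to 0.362 ± 0.173 CPM.

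Genes with the most similar pattern were sought among 8723 others with at least 5 CPM, by the root mean square distance of centred log2 CPM over the 6 libraries. Cd3e was nearest to Pot1a (0.05), Stmn1 (0.05) and Ly6e (0.06). Cd247 was nearest to Pitpnm1 (0.04), Kifc2 (0.05) and Ccnd3 (0.05), and Cd4 to Orai2 (0.05), Card6 (0.05) and Sdc1 (0.07). Trac was nearest to Txnl1, Pole4 and Actg1 (0.03 to 0.04) and Cd8a to Letm1, Stim2 and Cbx1 (0.03 to 0.04). With 2 groups this measure mostly finds genes with the same size of difference.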

How the data were processed

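Per the file headers, the authors ran featureCounts 1.6.0 on HISAT alignments to count read pairs over the exons of each gene in Ensembl 104, GRCm39. The deposited counts are raw. Strand, multi-mapping and gene overlap were left at the tool's defaults. GRCm38 and mm10 appear in the submitters' processing notes. For 9 of the 10 members the header's interval does not overlap that gene's interval in GENCODE M21 (GRCm38), so coordinates are printed as GRCm39. Ensembl IDs gave a symbol to 52083 of 55416 genes.

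From the counts, genes were kept by filterByExpr (14926 genes, 99.92% of counts) and tested with edgeR 4.0.16 (TMM, robust quasi-likelihood, R 4.3.3) in all 6 libraries, with Benjamini-Hochberg adjustment. SEs come from the log2 fold change and its F statistic (size over square root). Ratios within a library were compared by exact permutation. Named genes are the 10 members, up to 4 of each pathway list by smallest p, all gamma delta constants and ITAM adaptors, and the nearest patterns. Marker lists are given as sums and counts, with B cell genes fixed by name, of which Ms4a1 is reported here. Lck, Zap70, Fyn, Eomes, Nkg7, Gzma, Fcer2a, Pou2f1, Wdfy4, Bst2, Cd1d1, Xcr1, Clec9a, Siglech and the segment sums were chosen after their values were seen. The transcription regulators named are the 4 of that list with the smallest p, and all of them fell. Members and lists were chosen with earlier results of these data known. On simulated counts edgeR recovered 76.1% of the 1.5-fold changes and called 0.0899% of 14460 genes that had none, among 14660 genes fitted. Few genes were given a change there, while 57.8% of genes were called between the real groups. The rate of false calls with so many changes was not tested. Within groups the chi-square per degree of freedom between libraries ran from 10.3 to 21.9, above sampling noise. Alternatives were RLE scaling, total counts, DESeq2 1.42.0, limma-voom (limma 3.58.1), non-robust estimation, other filters, the replicate block, genes left out and libraries left out.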

Additional observations from a re-analysis of the deposited data

How the results depend on the processing

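Over 16 alternatives 8 members fell in each, and 9 of the 10 members kept direction and call in each. The exception was Cd8a, whose log2 fold change of 0.039 under total-count scaling had an adjusted p of 0.68. It also missed the threshold once allograft replicate 1 was left out (0.18, adjusted p = 0.054). In both fits 1 member rose. The cause was not tested. Leaving out 1 library in turn gave 3891 to 4134 rising and 4004 to 4315 falling genes, 1 to 2 rising members, and log2 fold changes of 0.18 to 0.31 for Cd8a, 0.64 to 0.75 for Trac, -0.78 to -0.56 for Cd3e, -1.40 to -1.32 for Cd247 and -1.63 to -1.50 for Cd4. All 18 ratio differences kept their sign with pseudocounts of 0 and 5 and without any 1 library. With 1 library left out, those of Cd3d to Cd3e and Cd3g to Cd3e shrank to as little as -0.0014 and 2.1e-04. For both the kept sign carries no information. Replicate numbers are shared between the groups only as numbers: deviations of same-numbered libraries correlated at -0.063, 0.0029 and -0.034. With the replicate block 4064 genes rose and 4152 fell, 2 members rose and 8 fell, and Cd8a stayed past the threshold (adjusted p = 0.021). Levels per kilobase moved with the length used, as given above. Depth limits the gamma delta constants, which had 6 to 72 counts per library and SEs of 0.27 to 0.57.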
